A study of Homo sapiens with 4 samples.

Results

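The imprinted genes described here are IGF2, H19, PEG3, PEG10, MEST, DLK1, MEG3, CDKN1C, PHLDA2 and GRB10, chosen by name. They are 10 of the genes in files that list 58825 gene rows, and they occupy 11 rows because IGF2 has 2 identifiers in the annotation. Of the 10 genes, 5 had enough reads to be tested between LoVo cells with and without MET. H19 had a few reads, and PEG3, DLK1 and MEG3 had none. IGF2 had 0 counts, but its 3' ends lie largely in exons of other genes, so this 0 cannot be read as a level. PHLDA2 and PEG10 were lower in the MET-KO cells, 4.26-fold and 3.39-fold, and CDKN1C, MEST and GRB10 were higher by less than 2-fold. These 5 passed the test, as did 54.1% of all tested genes. GRB10 no longer passed when the libraries were scaled to the genes of its own chromosome.

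LoVo is a line established from a colon adenocarcinoma whose MET receptor stays uncleaved and active without its ligand. The MET+ group is the GFP control of the line, labelled as wild type, and the MET-KO group is the same line after CRISPR/Cas9 knock out of MET, both grown in DMEM with serum. A GFP plasmid served as the transfection control, cells were selected with puromycin, and single clones were picked and selected by western blot. The sources used here do not say how many clones were sequenced. A difference between a clone and its parental line and an effect of MET therefore cannot be told apart. Each group has 2 biological replicates, sequenced by QuantSeq, which reads 1 fragment near the 3' end of each polyadenylated transcript.

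Genomic imprinting is the expression of a gene from only the maternal or only the paternal chromosome, fixed by DNA methylation laid down in the germ line at imprinting control regions. Imprinted genes lie in clusters that share such a region, and many act on growth of the fetus and placenta. Expression of IGF2 from both parental copies, called loss of imprinting, is well known in colorectal tumours. The counts analysed here do not separate the parental alleles, so they give the amount of RNA from each gene and not its imprinting. In these bulk samples, fewer expressing cells and less RNA per cell cannot be told apart.

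The members fall into 6 regions. IGF2, H19, CDKN1C and PHLDA2 lie at one end of chromosome 11, where H19 and IGF2 share one control region and CDKN1C and PHLDA2 another. DLK1 and MEG3 lie together on chromosome 14, PEG3 lies on chromosome 19, and PEG10, MEST and GRB10 lie far apart on chromosome 7. Imprints are kept in the early embryo by the zinc finger protein ZFP57, which binds the letters TGCCGC when the CpG in them is methylated. The 250 bases before a transcription start are printed for 3 members with contrasting content of this hexamer and of CpG, and for NAP1L5, the imprinted gene with the largest difference between the groups outside the 10. They were taken from RefSeq on GRCh38.p14, which held an entry for 4 of the 10 members. The bases run 5′ to 3′ on the strand of the gene, in lower case, with the hexamer or its reverse complement GCGGCA in capitals.
H19, minus strand, chr11:2001267-2001516: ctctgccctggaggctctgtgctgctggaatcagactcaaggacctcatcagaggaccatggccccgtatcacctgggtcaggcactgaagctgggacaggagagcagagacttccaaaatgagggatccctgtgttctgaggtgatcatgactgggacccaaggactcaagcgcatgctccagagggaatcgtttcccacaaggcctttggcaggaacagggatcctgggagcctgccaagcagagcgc
MEST, plus strand, chr7:130486097-130486346: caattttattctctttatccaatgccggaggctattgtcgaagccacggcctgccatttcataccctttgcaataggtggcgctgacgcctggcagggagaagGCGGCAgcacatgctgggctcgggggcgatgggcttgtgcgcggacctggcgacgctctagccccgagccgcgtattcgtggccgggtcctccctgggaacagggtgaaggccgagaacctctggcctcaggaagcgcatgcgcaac
GRB10, minus strand, chr7:50793454-50793703: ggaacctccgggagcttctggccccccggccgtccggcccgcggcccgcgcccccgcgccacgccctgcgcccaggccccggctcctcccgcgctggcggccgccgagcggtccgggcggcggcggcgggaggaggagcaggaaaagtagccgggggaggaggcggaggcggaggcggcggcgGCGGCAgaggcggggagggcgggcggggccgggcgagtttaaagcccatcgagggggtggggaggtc
NAP1L5, minus strand, chr4:88697830-88698079: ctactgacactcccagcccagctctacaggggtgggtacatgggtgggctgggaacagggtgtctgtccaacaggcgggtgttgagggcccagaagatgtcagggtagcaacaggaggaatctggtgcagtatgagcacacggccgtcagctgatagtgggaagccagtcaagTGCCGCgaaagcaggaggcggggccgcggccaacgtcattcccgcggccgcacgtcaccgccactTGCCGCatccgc

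Where a gene has several listed starts, the one shown matches an annotated transcript and holds the most hexamers. The 250 bases of GRB10 hold 37 CpG dinucleotides, more than 96.0% of the 34788 distinct upstream sequences of this length in the table, whose median is 11. Those of MEST hold 20 and those of H19 hold 4, at percentiles 67.5 and 29.4. MEST and GRB10 have 1 hexamer each on the reverse strand, H19 has 0 in this window, and NAP1L5 has 2 on the forward strand. MEG3, not printed, has 1 hexamer on the reverse strand and 13 CpG. On either strand, 12.8% of the upstream sequences hold the hexamer and 1.69% hold 2 or more. MEST and GRB10 have 5 listed starts each and were shown at the start with the most hexamers. Their matches can therefore not be set against these shares of single sequences. The windows of H19, MEST and, at its edge, GRB10 reach into the annotated span of their own gene. That of MEST also lies within the antisense gene MESTIT1, and that of NAP1L5 lies inside the span of HERC3 on the other strand. Which starts are used in these cells, and whether they are imprinted, was not tested. A match to these letters is a description of the sequence, not a binding site, and methylation was not measured.

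The libraries held 8429142 and 10286552 counts in MET+ against 10137583 and 10228991 in MET-KO cells, and a count of 0 still allows up to 3 counts, or 0.276 to 0.363 in CPM, the unit in which counts are set against a fixed library size, for counting error only. MET itself had 2794 and 3272 counts in MET+ against 861 and 965 in MET-KO cells. In edgeR's quasi-likelihood test, adjusted by Benjamini-Hochberg, with a threshold of 0.05, 7467 of 13801 genes (54.1%) were called, 27.2% as higher and 26.9% as lower in MET-KO, and the median log2 change over all tested genes was 0.01. The median was 0.50 for chromosome 7 and -0.51 for chromosome 14, against 0.04 for chromosome 11 and 0.01 for chromosome 19. Reads of chromosome Y genes summed to 57 and 45 in MET+ and 7200 and 7330 in MET-KO cells. Of 12 markers of colorectal epithelium, CDX1 was at 0 throughout, and CDH17 and CEACAM5 were at 0 in MET-KO cells. Of the 11 tested, 2 were called higher and 8 lower, with log2 fold changes from -11.9 to 7.68. The summed level was 9727 to 9762 CPM in MET+ and 7337 to 8321 CPM in MET-KO cells, most of it keratins. Markers of other cell types were low, and their part in the results was not tested. Their sums in MET+ and MET-KO cells were 1.64 to 2.18 and 3.82 to 4.33 CPM for 10 fibroblast genes, with COL1A2, DCN, FAP and POSTN at 0. They were 0.205 to 0.363 and 0.686 to 0.829 CPM for 8 fetal liver genes, with AFP, ALB, APOB, FGB and TTR at 0, and 0.308 to 0.363 and 0.276 to 1.27 CPM for 9 trophoblast genes. The 7 endothelial genes summed to 7.37 to 8.42 and 3.04 to 4.22 CPM, with CDH5 at 0. The 10 immune genes summed to 6.16 to 10.3 and 1.08 to 1.47 CPM, with PTPRC at 0.

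The 5 tested members were all called, 3 higher and 2 lower with MET knocked out, in a comparison where 54.1% of all tested genes were called. Their median log2 fold change was 0.56, but they spread from -2.09 to 0.95. In all 5 the groups did not overlap, which was so for 75.6% of all tested genes, 38.5% with MET-KO higher and 37.1% with MET-KO lower. The sizes of PHLDA2 and PEG10 belong to the 24.3% of genes that were called with a log2 change of 1 or more in size, and those of CDKN1C, MEST and GRB10 do not. With libraries scaled over all genes, all 5 members kept their direction and their call with the other scalings tried, with DESeq2's Wald test, under both other filters and without each library in turn.

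**Figure D1:**
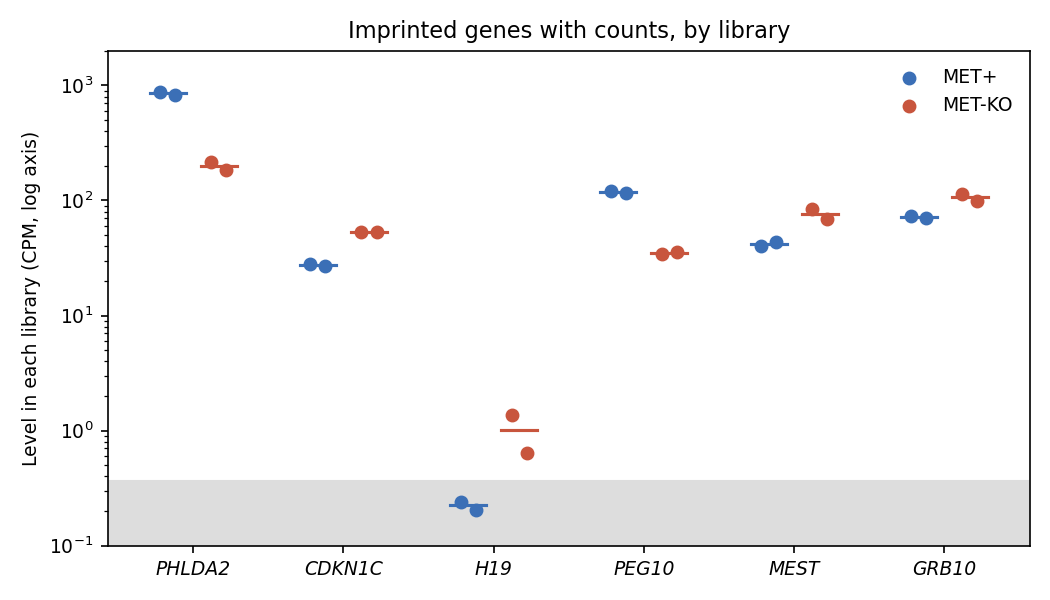
Level of the 6 members with any count, in CPM on a log axis, with 1 point for each of 2 MET+ (blue) and 2 MET-KO (red) libraries and a line at the group mean. The grey band ends at 0.363 CPM, the most that a count of 0 allows, and the MET+ points of H19 lie within it.

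PHLDA2 encodes a small protein with a pleckstrin homology domain, is expressed from the maternal copy and restrains growth of the placenta. It lies on the minus strand of chromosome 11 from 2928273 to 2929455 on GRCh38 (ENSG00000181649). Its counts were 7200 and 8095 in the MET+ and 2180 and 2016 in the MET-KO libraries, or 870 and 831 CPM against 214 and 186 CPM. Both MET-KO libraries lay far below both MET+ libraries. PHLDA2 fell from 850.5 ± 27.7 to 199.7 ± 19.9 CPM (SD, n = 2 per group), which is -2.09 ± 0.10 (SE) as a log2 fold change with an adjusted p of 4.84e-19 in edgeR's quasi-likelihood test. It ranked 174 by p-value among the 13801 genes tested and stood at percentile 2.77 of chromosome 11. The 86 tested genes within 5 Mb had a median of 0.09, and scaling to chromosome 11 alone gave PHLDA2 a log2 fold change of -2.13.

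CDKN1C, 43.7 kb away, went the other way. It encodes p57KIP2, an inhibitor of cyclin-dependent kinases that is expressed mainly from the maternal copy, and lies on the minus strand from 2883213 to 2885773 (ENSG00000129757). CDKN1C had 234 and 264 counts in the MET+ replicates, against 548 and 575 in MET-KO, or 28.3 and 27.1 CPM against 53.7 and 52.9 CPM. The replicates of each group were close together and the groups did not overlap. CDKN1C rose from 27.7 ± 0.834 to 53.3 ± 0.553 CPM (SD, n = 2 per group), which is 0.95 ± 0.12 (SE) as a log2 fold change with an adjusted p of 3.98e-08 in edgeR's quasi-likelihood test. It stood at percentile 83.7 of its chromosome.

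CDKN1C and PHLDA2 belong to the same imprinted domain and are silenced on the same parental copy. Their ratio within a library does not depend on library scaling. The ratio of CDKN1C to PHLDA2 counts was 0.0325 and 0.0326 in the MET+ replicates against 0.251 and 0.285 in MET-KO, 8.24 times higher. KCNQ1OT1, the long RNA of the paternal copy that keeps this domain silent there, had 122 and 177 counts in MET+ against 138 and 246 in MET-KO cells, and its log2 fold change of 0.14 did not pass the test (adjusted p = 0.58, edgeR's quasi-likelihood test). Other genes of the domain were called. The potassium channel gene KCNQ1 fell from 16.9 ± 3.05 to 10.1 ± 0.0438 CPM and the transporter gene SLC22A18 from 26.8 ± 1.86 to 17.1 ± 0.516 CPM (SD, n = 2 per group), with log2 fold changes of -0.74 and -0.65. The lipid transfer gene OSBPL5 rose from 7.83 ± 0.0381 to 18.6 ± 1.49 CPM (SD, n = 2 per group), or 1.24 on the log2 scale. Genes of 1 domain that are maternally expressed where they are imprinted thus moved in both directions. The allele in use in these cells was not measured.

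Genes without known imprinting stand among them. NAP1L4, 62.9 kb from PHLDA2, had a log2 fold change of -0.10 that did not pass the test. CARS, a tRNA synthetase gene 128 kb from PHLDA2, fell from 130 ± 4.12 to 45.9 ± 3.002 CPM (SD, n = 2 per group), or -1.51 on the log2 scale. TSSC2 was at 0 in the MET+ libraries and at 4.13 ± 0.287 CPM (SD, n = 2) in the MET-KO libraries. Within 1 Mb of PHLDA2, 17 other genes were tested, 4 called higher and 6 lower, and their median was -0.23. Within 1 Mb of CDKN1C, 3 of 17 were higher and 7 lower. Over all tested genes, 27.2% were called higher and 26.9% lower.

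H19 encodes a maternally expressed long noncoding RNA, abundant in fetal tissue, and lies on the minus strand from 1995176 to 2001470 (ENSG00000130600). It had 2 and 2 counts in the MET+ replicates, against 14 and 7 in MET-KO. The MET+ values lie under the limit of 3 counts, and the MET-KO values, 1.37 and 0.645 CPM, lie above it. H19 was too low for the filter. Fitted without the filter it gave an adjusted p of 0.0821 in edgeR's quasi-likelihood test, and DESeq2's Wald test gave 0.235, so the difference did not pass.

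IGF2, the paternally expressed growth factor gene beside H19, had 0 counts under both of its identifiers in all 4 libraries. ENSG00000167244 spans 2129112 to 2149603 and ENSG00000284779 spans 2129112 to 2158658, both on the minus strand. The 3' ends of their transcripts, taken as the last 500 bases, lay 100% and 80.3% within exons of other genes on the same strand, among them each other and INS-IGF2, a gene that reads through from insulin and also had 0 counts. Of 453 protein-coding genes whose 3' ends lay wholly in such exons, 431 (95.1%) had 0 counts, against 3834 of 13234 (28.97%) with no overlap on either strand. Of 66 genes wholly overlapped on the opposite strand alone, 22 (33.3%) had 0 counts. The 0 of IGF2 can therefore not be read as a level. IGF2-AS, on the opposite strand, had 5 and 5 counts in MET+ against 1 and 1 in MET-KO cells. Within 1 Mb of IGF2, 2 of 17 tested genes were higher and 7 lower, beside 27.2% and 26.9% of all tested genes. The nearest called ones were ASCL2, a factor of intestinal stem cells (log2 fold change -0.79), CD81, a tetraspanin gene (0.42), and TSSC4 (-0.50). MUC2, the intestinal mucin gene 927 kb from H19, fell from 24.7 ± 2.77 to 0.481 ± 0.290 CPM (SD, n = 2 per group).

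PEG10, on chromosome 7, derives from a retrotransposon, is expressed from the paternal copy and is required for the placenta. It lies on the plus strand from 94656325 to 94669695 (ENSG00000242265). Its counts were 995 and 1128 in MET+ and 346 and 386 in MET-KO cells, or 120 and 116 CPM against 33.9 and 35.5 CPM. Replicates were close together and the groups lay far apart. PEG10 fell from 118 ± 3.15 to 34.7 ± 1.15 CPM (SD, n = 2 per group), which is -1.76 ± 0.11 (SE) as a log2 fold change with an adjusted p of 7.06e-16 in edgeR's quasi-likelihood test. Among the 673 tested genes of chromosome 7 it stood at percentile 4.01 and ranked 348 by p-value among all genes. The 53 tested genes within 5 Mb had a median of 0.52, but the 9 within 1 Mb had one of 0.04. With the libraries scaled to the genes of chromosome 7 alone, the log2 fold change of PEG10 was -2.27.

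SGCE, a sarcoglycan gene that is also paternally expressed, starts 0.247 kb from PEG10 and runs the other way. It had 97 and 87 counts in MET+ against 118 and 130 in MET-KO cells, a log2 fold change of 0.20 that did not pass the test (adjusted p = 0.438, edgeR's quasi-likelihood test). The ratio of SGCE to PEG10 counts was 0.0975 and 0.0771 in the MET+ replicates against 0.341 and 0.337 in MET-KO, 3.88 times higher. The balance of this divergent pair was thus shifted in both MET-KO libraries. PPP1R9A, in the same cluster, fell from 17.1 ± 0.935 to 12.2 ± 2.21 CPM (SD, n = 2 per group), or -0.48 on the log2 scale. That call was lost without MET+ replicate 2 (-0.43), without MET-KO replicate 1 (-0.31), with library totals alone (-0.37) and with DESeq2's Wald test. CALCR had 2 counts in 1 MET-KO library and 0 in the others. Of 9 tested genes within 1 Mb of PEG10, 3 were called higher and 1 lower, beside 27.2% and 26.9% of all tested genes. GNG11, a G protein subunit gene 735 kb away, was at 0 in MET+ and at 42.0 ± 2.03 CPM (SD, n = 2) in MET-KO cells.

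MEST, the mesoderm-specific transcript, encodes a protein of the hydrolase fold and is paternally expressed from one of its promoters. It lies on the plus strand from 130486171 to 130506465 (ENSG00000106484). MEST had 335 and 422 counts in MET+ against 858 and 747 in MET-KO cells, or 40.5 and 43.3 CPM against 84.1 and 68.8 CPM. The MET-KO libraries were less even than the MET+ libraries, but the groups did not overlap. MEST rose from 41.9 ± 2.003 to 76.5 ± 10.8 CPM (SD, n = 2 per group), which is 0.87 ± 0.12 (SE) as a log2 fold change with an adjusted p of 9.83e-08 in edgeR's quasi-likelihood test. The lower quartile of chromosome 7 was itself above 0, at 0.04, and MEST stood at its percentile 66.0, with a median of 0.37 over 51 genes within 5 Mb. Scaled to chromosome 7 alone, the log2 fold change was 0.35 (adjusted p = 0.00929, the same edgeR test).

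COPG2, a coat protein gene whose 3' end meets that of MEST on the opposite strand, rose from 19.1 ± 2.75 to 36.4 ± 4.36 CPM (SD, n = 2 per group), or 0.94 on the log2 scale. MESTIT1, antisense to the MEST promoter, had 1 and 19 counts in MET+ against 8 and 10 in MET-KO cells. The 3' ends of MEST transcripts lay 20.6% within exons of COPG2, MESTIT1 and AC007938.2 of the opposite strand, and the strand setting of the counting is not given in the sources used here. The imprinted genes CPA4 and KLF14 of this cluster had log2 fold changes of -1.12 and 0.73, neither past the test. CPA4 had 5 and 16 counts in MET+ against 11 and 0 in MET-KO cells, and was called lower (adjusted p = 0.0124, edgeR's quasi-likelihood test) without MET-KO replicate 1, which leaves that group at 0 counts. Of 16 tested genes within 1 Mb, 5 were called higher and 2 lower, beside 27.2% and 26.9% of all tested genes. SMKR1 had a log2 fold change of 1.48, AC078846.1 of 1.01, AC016831.6 of -2.36 and the 2 identifiers of LINC-PINT of -1.13 and 1.502. The calls of AC078846.1 and of the lower LINC-PINT were lost without MET-KO replicate 1 (0.86 and -0.72) and with DESeq2's Wald test.

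GRB10 encodes an adaptor that binds and restrains the insulin and IGF1 receptors, and in humans its imprinting depends on tissue and promoter. It lies on the minus strand from 50590063 to 50793462 (ENSG00000106070). GRB10 had 607 and 691 counts in MET+ against 1155 and 1084 in MET-KO cells, or 73.3 and 70.9 CPM against 113 and 99.8 CPM. The lower MET-KO value exceeded the higher MET+ value. GRB10 rose from 72.1 ± 1.71 to 106.5 ± 9.49 CPM (SD, n = 2 per group), which is 0.56 ± 0.10 (SE) as a log2 fold change with an adjusted p of 1.88e-05 in edgeR's quasi-likelihood test. This was close to the median of chromosome 7, where GRB10 stood at percentile 53.3. Scaled to that chromosome alone, its log2 fold change was 0.051 ± 0.10 (SE), with an adjusted p of 0.659 in the same edgeR test, and the call was lost. Only 12 tested genes start within 5 Mb of GRB10, with a median of -0.16. DDC, an imprinted gene next to it that makes dopamine and serotonin, had 20 and 13 counts in MET+ against 2 and 0 in MET-KO cells.

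**Figure D2:**
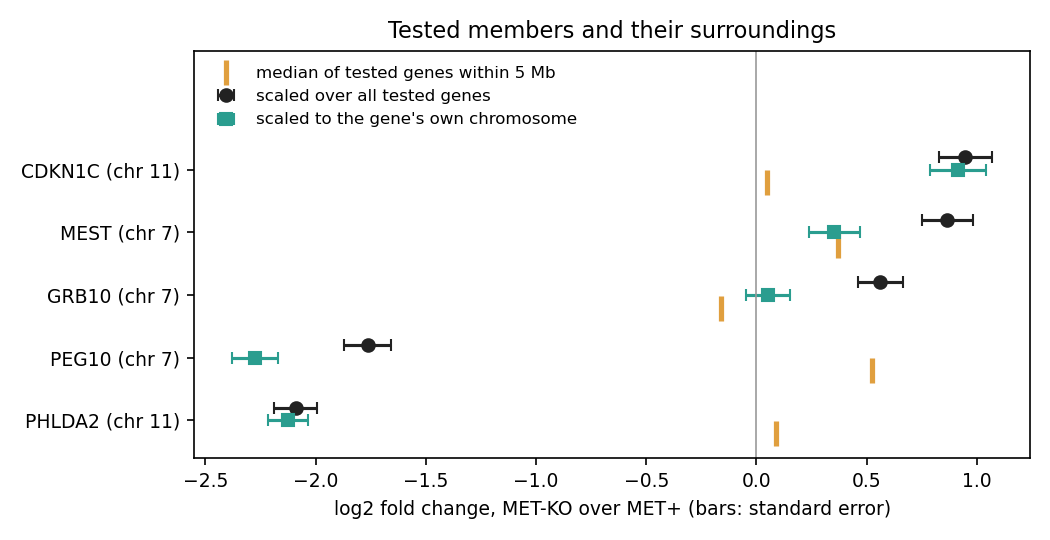
log2 fold change of the 5 tested members (MET-KO over MET+) with standard errors, scaled over all tested genes (black) and over the genes of the own chromosome (green), and the median of tested genes within 5 Mb (orange). GRB10 moves from 0.56 to 0.051 and PEG10 from -1.76 to -2.27, while PHLDA2 and CDKN1C on chromosome 11 stay in place.

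**Figure D3:**
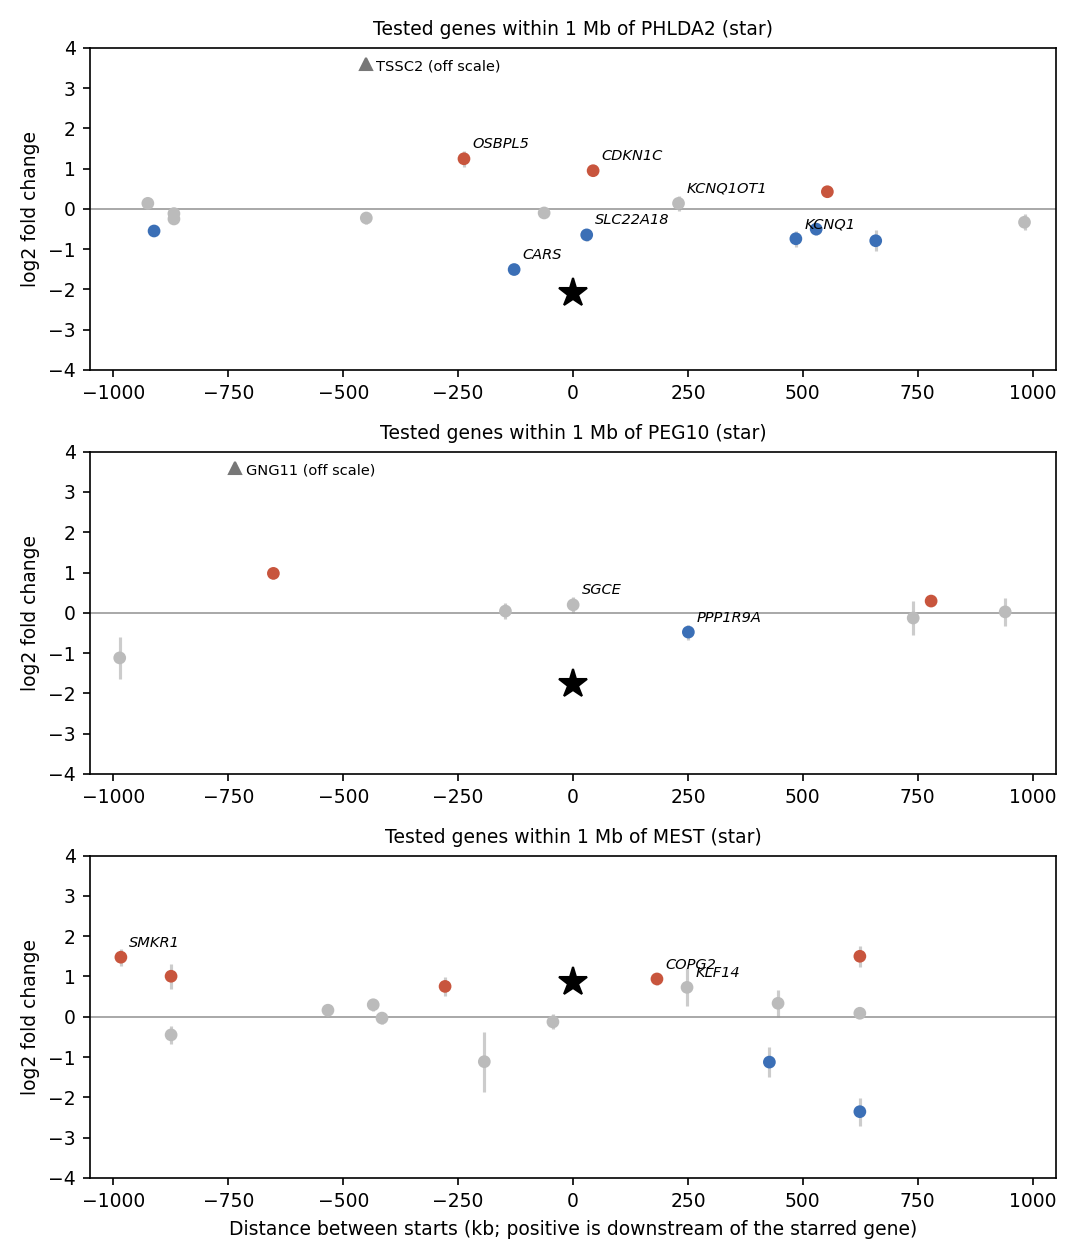
log2 fold change of the tested genes within 1 Mb of PHLDA2, PEG10 and MEST (stars) against the distance between starts in kb, with standard errors, red for called higher, blue for called lower and grey for not called. TSSC2 and GNG11 are drawn at the edge as off scale, and PHLDA2 and PEG10 lie below all of their tested neighbours.

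The remaining members had no read in any library. DLK1, a paternally expressed ligand related to those of Notch, lies on the plus strand of chromosome 14 from 100725705 to 100738224 (ENSG00000185559). MEG3, the maternally expressed long noncoding RNA of the same cluster, lies on the same strand from 100779410 to 100861031 (ENSG00000214548). PEG3, a paternally expressed zinc finger gene, lies on the minus strand of chromosome 19 from 56810077 to 56840728 (ENSG00000198300). Unlike those of IGF2, their 3' ends lay only 0%, 1.97% and 9.10% within exons of other genes on the same strand. They were not detectable at this depth, and a difference below the limit of 3 counts per library would not be seen.

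Around these undetected members other genes were read. DIO3, the thyroid hormone deiodinase gene at the far end of the DLK1 and MEG3 cluster, had 74 and 94 counts in MET+ against 4 and 17 in MET-KO cells. It fell from 9.30 ± 0.499 to 0.979 ± 0.830 CPM (SD, n = 2 per group), or -3.21 on the log2 scale (adjusted p = 1.27e-08, edgeR's quasi-likelihood test), at percentile 2.92 of chromosome 14. DIO3OS, its opposite-strand RNA, fell from 2.14 to 0.285 CPM. Of the 10 tested genes within 1 Mb of DLK1, 7 were called lower and 0 higher, beside 26.9% and 27.2% of all tested genes. The 10 had a median of -1.08. DEGS2, WARS and BEGAIN had log2 fold changes of -3.96, -1.39 and -1.88. Chromosome 14 as a whole had a median of -0.51, and the 79 tested genes within 5 Mb of DLK1 had one of -0.72. Within 1 Mb of MEG3, 8 of 11 tested genes were lower and 0 higher. Around PEG3, in a cluster of zinc finger genes, 3 of 13 were higher and 3 lower. There ZNF17, ZNF460-AS1 and AC005261.1 had log2 fold changes of 2.40, 3.02 and -1.04, and ZNF551 went from 2.92 ± 0.651 CPM (SD, n = 2) to 0.

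A list of 49 other imprinted genes, of which 48 were found in the files, gave 23 tested genes. The test called 7 of them higher and 7 lower, or 60.9% in all, beside 54.1% of all tested genes. Their median log2 fold change was 0.14, against 0.01 over all tested genes, and was also 0.14 with NAP1L5, which has 0 counts in MET+, at its lower bound. In the tissues where they are imprinted, paternally expressed genes, members included, gave 10 tested, with 4 higher and 3 lower, and maternally expressed genes gave 11 tested, with 3 higher and 5 lower. Their median log2 fold changes were 0.53 and -0.48, with 70% and 72.7% called. Genes whose expressed allele varies or is disputed gave 7 tested, with 3 higher and 1 lower and a median of 0.01. The medians of the parental classes thus lay on opposite sides of 0, and each class held calls in both directions. Whether the classes differ was not tested.

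NAP1L5, a paternally expressed retrogene of chromosome 4, had 0 and 0 counts in the MET+ replicates, against 131 and 153 in MET-KO (12.8 and 14.1 CPM). With 3 counts per library set in place of 0, it was higher by 35.4-fold at the least in MET-KO cells. HERC3, the gene that surrounds it on the opposite strand, had 2.91 ± 0.493 CPM in MET+ against 1.98 ± 0.449 CPM in MET-KO cells (SD, n = 2 per group). HERC3 did not pass the test (log2 fold change -0.54), while NAP1L5 did. The 11 tested genes within 1 Mb of NAP1L5 had a median of 0.68. Over the 22 within 5 Mb it was 0.30, and over chromosome 4 it was 0.07.

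PLAGL1, a paternally expressed zinc finger gene that restrains cell growth, had 28 and 48 counts in MET+ against 150 and 244 in MET-KO cells. It rose from 4.16 ± 1.09 to 18.6 ± 5.49 CPM (SD, n = 2 per group), or 2.15 on the log2 scale (adjusted p = 3.35e-09, edgeR's quasi-likelihood test). ZNF215, a zinc finger gene of chromosome 11, rose from 1.42 ± 0.465 to 7.63 ± 0.803 CPM. BLCAP, which hosts the imprinted gene NNAT in its intron, rose from 27.5 ± 2.94 to 57.0 ± 1.72 CPM, while NNAT itself had 0, 0, 0 and 2 counts. ZDBF2 rose from 7.31 ± 0.257 to 13.3 ± 0.590 CPM, and the tumour suppressor gene RB1 from 27.8 ± 1.48 to 40.5 ± 2.30 CPM (SD, n = 2 per group). These 4 had log2 fold changes of 2.40, 1.05, 0.86 and 0.54.

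Among the lower genes, UBE3A, the ubiquitin ligase gene of Angelman syndrome, fell from 193 ± 13.7 to 114 ± 6.42 CPM (SD, n = 2 per group), or -0.76 on the log2 scale (adjusted p = 2.82e-08, edgeR's quasi-likelihood test). It lies on chromosome 15, whose tested genes had a median of -0.43. DIRAS3, a paternally expressed gene of the RAS family, had 11 and 12 counts in MET+ against 0 and 6 in MET-KO cells. Its call was lost without MET+ replicate 1, without MET-KO replicate 1 and with DESeq2's Wald test. Among genes that did not pass, GNAS had 436 ± 17.5 CPM in MET+ against 407 ± 0.196 CPM in MET-KO cells, and IGF2R, the receptor that clears IGF2, had 56.1 ± 0.421 and 56.4 ± 12.2 CPM (SD, n = 2 per group). The 95% intervals of their log2 fold changes ran from -0.27 to 0.08 and from -0.23 to 0.24. SNRPN, SNURF, NDN and MAGEL2 of the Prader-Willi region had no counts, and the 3' ends of SNRPN and SNURF lay 56.3% and 68.5% within exons of other genes on the same strand.

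**Figure D4:**
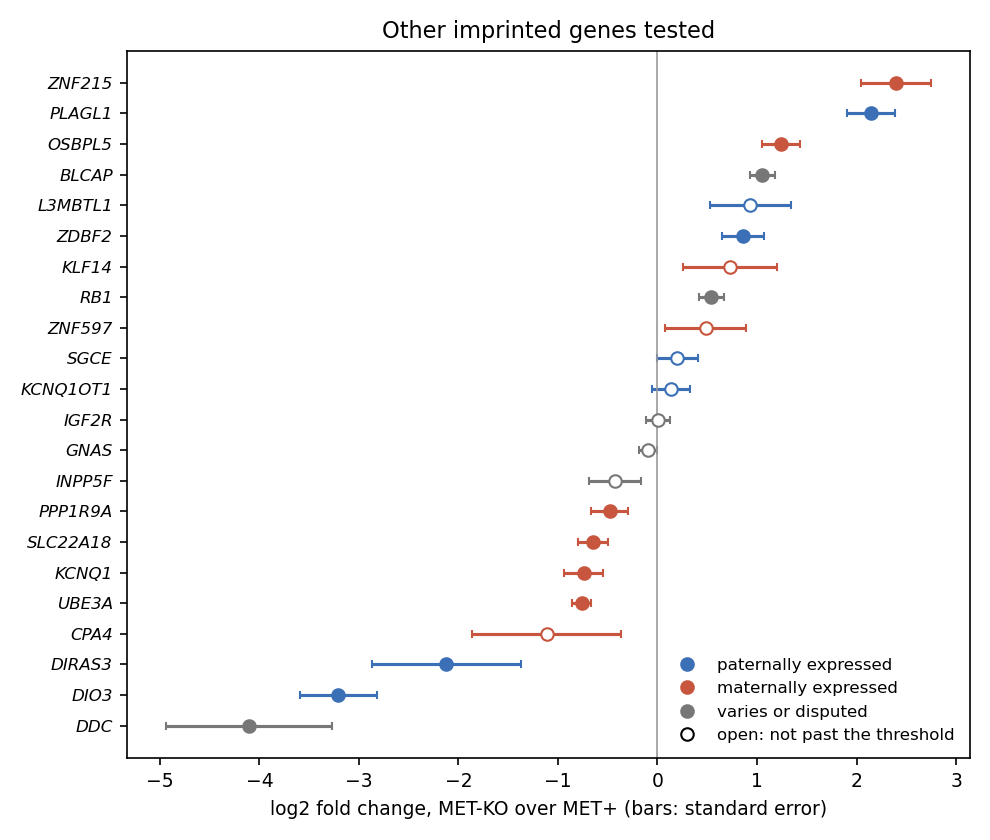
log2 fold change (MET-KO over MET+) of the other imprinted genes tested, with standard errors, in blue for paternally expressed, red for maternally expressed and grey for varying or disputed, and open where the gene did not pass the threshold. NAP1L5 is left out because it had 0 counts in MET+, and both parental classes lie on either side of 0, with ZNF215 at 2.40 and DIO3 at -3.21.

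Genes that keep or erase imprints were given by a list of 17, of which 12 were tested. At the threshold 3 were called higher and 3 lower, or 50% beside 54.1% of all tested genes, and ZFP57, DPPA3, NLRP7 and DNMT3L had no counts. DNMT1, which copies methylation at each replication, fell from 157 ± 3.85 to 106 ± 2.09 CPM (SD, n = 2 per group), or -0.56 on the log2 scale (adjusted p = 5.27e-06, edgeR's quasi-likelihood test). UHRF1, which brings DNMT1 to hemimethylated DNA, went the other way, from 8.42 ± 1.597 to 14.8 ± 1.06 CPM (SD, n = 2 per group), or 0.83 on the log2 scale (adjusted p = 0.000957, the same edgeR test). These partners in copying methylation thus moved in opposite directions.

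CTCF, the factor that binds the unmethylated control region of H19 and IGF2, fell from 86.6 ± 0.853 to 65.9 ± 0.104 CPM, and ARID4A from 67.8 ± 2.39 to 45.3 ± 5.44 CPM (SD, n = 2 per group), with log2 fold changes of -0.39 and -0.58. ARID4A lies on chromosome 14 and stood at its percentile 44.9. TET2, which oxidises methylated cytosine, and TRIM28, the corepressor that ZFP57 recruits, were called higher, with log2 fold changes of 0.53 and 0.22. Both calls were lost without MET+ replicate 1 (0.47 and 0.16). That of TET2 was also lost without MET-KO replicate 2 (0.45), and that of TRIM28 without MET+ replicate 2 (0.27) and without MET-KO replicate 1 (0.16). DESeq2's Wald test called neither, and without the filter on low counts TRIM28 was not called. The methyltransferase genes DNMT3A and DNMT3B had log2 fold changes of 0.38 and -0.49 that did not pass. DNMT3A was called with library totals alone (0.48). The call on DNMT3B was gained without MET+ replicate 2 (-0.63) and without MET-KO replicate 2 (-0.72). ZNF445, the other zinc finger protein that keeps imprints, had 11.4 ± 1.75 and 11.1 ± 1.59 CPM (SD, n = 2 per group).

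The receptors and adaptors of the IGF2 pathway, on which GRB10 acts, were read well although IGF2 was not. Of 9 listed genes 6 were tested and called, 4 higher and 2 lower, where 27.2% and 26.9% of all tested genes were. The adaptor IRS1 rose from 6.44 ± 1.998 to 30.9 ± 0.564 CPM (SD, n = 2 per group), or 2.28 on the log2 scale (adjusted p = 3.07e-12, edgeR's quasi-likelihood test), and IRS2 rose from 98.7 ± 4.07 to 201 ± 9.80 CPM. IGF1R, the receptor through which IGF2 signals, rose from 25.1 ± 2.49 to 48.4 ± 4.905 CPM, and INSR fell from 63.3 ± 3.86 to 44.5 ± 3.87 CPM (SD, n = 2 per group). Of the proteins that bind IGF2 mRNA, IGF2BP3, on chromosome 7, rose from 15.9 ± 0.287 to 47.4 ± 6.895 CPM and IGF2BP2 fell from 171 ± 14.8 to 133 ± 11.2 CPM (SD, n = 2 per group). The median over the 50 tested genes within 5 Mb of IGF2BP3 was 1.34, close to its own log2 fold change of 1.58. The call on IGF2BP2 (-0.36) was lost without MET+ replicate 1 (-0.27). IGF2BP1 had 0, 0, 6 and 1 counts, LIN28A 0, 0, 1 and 1, and LIN28B none.

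Relatives of the members that are not known as imprinted were listed as well. Of 14 such genes 11 were tested, with 4 higher and 3 lower, or 63.6% called beside 54.1% of all tested genes. Their median was -0.02, also with IGF1 at its lower bound. PHLDA1, related to PHLDA2, fell from 1265 ± 51.9 to 964 ± 37.5 CPM (SD, n = 2 per group), or -0.39 on the log2 scale, beside the -2.09 of PHLDA2. PHLDA3 had a log2 fold change of 0.30, and its call was lost without MET+ replicate 1 (0.17), without MET-KO replicate 1 (0.19) and with DESeq2's Wald test. CDKN1A, which encodes the p53-induced inhibitor p21, rose from 203 ± 3.17 to 660 ± 3.002 CPM (SD, n = 2 per group), or 1.70 on the log2 scale (adjusted p = 3.24e-17, edgeR's quasi-likelihood test), whereas CDKN1B had -0.11 and did not pass.

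RTL8A, of the same retrotransposon family as PEG10, had 6 and 8 counts in MET+ against 571 and 567 in MET-KO cells. It rose to 54.1 ± 2.67 CPM (SD, n = 2), a log2 fold change of 6.10 (adjusted p = 1.62e-21, edgeR's quasi-likelihood test), against the fall of PEG10. Its near-identical copies RTL8B and RTL8C were at 0, so the reads are uncertain as to copy. RTL6 (0.05) and RTL5 (-0.68) did not pass, and RTL5 was called without MET+ replicate 1 (-1.01). GRB14, related to GRB10, had 56 and 65 counts in MET+ against 7 and 16 in MET-KO cells, and GRB7 had a log2 fold change of -0.02. DLK2, related to DLK1, had a log2 fold change of -0.82, and its call was lost without MET-KO replicate 1 (-0.65) and with DESeq2's Wald test. IGF1 had 0 and 0 counts in MET+ against 16 and 25 in MET-KO cells, at least 4.33-fold higher with 3 counts per library in place of 0.

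The tested genes whose log2 CPM over the 4 libraries lay nearest to CDKN1C, each centred on its mean, were STAT3, PDLIM2 and RPA3, at Euclidean distances of 0.0171, 0.0312 and 0.0414 among 13800 genes. STAT3, a transcription factor of cytokine signalling, had 27.7, 26.8, 52.3 and 51.8 CPM in the order MET+ then MET-KO. Nearest to PHLDA2 were HMGCS1, MPC1 and SCD, at distances of 0.0255, 0.0321 and 0.0552. HMGCS1, an enzyme of cholesterol synthesis, had 1406 and 1374 CPM in MET+ and 352 and 306 CPM in MET-KO cells. These are likenesses over 2 groups of 2 libraries, which share their scaling, and are given as a description.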

How the data were processed

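RNA of 4 LoVo samples, 2 MET+ and 2 MET-KO, was sequenced from QuantSeq 3' FWD libraries. The authors deposited whole counts of reads per Ensembl gene, without normalization, in 1 file per sample. The submitters' processing notes name bcl2fastq, cutadapt 1.16, FastQC 0.11.7, MultiQC 1.5, STAR 2.5.4a, featureCounts 1.6.2, DESeq2 1.18.1 and the build GRCh38. The annotation, the strand setting and the handling of overlapping genes and of reads with several matches are not given in the sources used here. No molecular identifiers are used in the counting, so limits from a count of 0 cover counting error only.

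Gene names and positions were taken from GENCODE 29, in which 58552 of 58825 gene identifiers were found. The other 273 held at most 0.00396% of a library, and 99 spike-in rows, all at 0, were left out. In R 4.3.3, edgeR 4.0.16 was run with filterByExpr by group (13801 of 23153 genes with a count), TMM factors of 0.983, 0.949, 1.01 and 1.06, and glmQLFTest on the condition alone, adjusted by Benjamini-Hochberg, at a threshold of 0.05. CPM values use the TMM-scaled library sizes. An exact permutation of 2 against 2 libraries cannot go below p = 0.333, so calls rest on the spread edgeR estimates across genes. The replicates of a group differed by more than sampling noise (chi-square per degree of freedom 5.45 and 4.86), and whether that spread is biological depends on the label alone. Deviations of same-numbered samples had a correlation of -0.0216 across genes, so the numbers were not taken to pair samples.

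The members and gene lists were chosen with earlier results of these data known. Named were the 10 members. From the other imprinted genes, up to 12 per direction that passed and had a mean log2 CPM of 2 or more were named, and from the lists for maintenance, the IGF2 pathway and relatives up to 8 by the same rule. Called neighbours within 1 Mb with a log2 change of 1 or more in size (up to 6 per member) and the 3 genes nearest in pattern completed them. Every other gene named was chosen after its values were seen. Neighbour medians used 5 Mb, overlaps the last 500 bases of each transcript (bedtools 2.31.1), and pattern distances a prior count of 2. Alternatives were DESeq2 1.42.0, its size factors, library totals alone, no filter, a minimum of 10 counts per library, a block on the replicate number, leaving out each library, and scaling to the genes of the own chromosome. The test was tried on simulated data with known changes. Summaries and figures used Python 3.11.15, pandas 2.3.3 and matplotlib 3.10.9.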

Additional observations from a re-analysis of the deposited data

How the results depend on the processing

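The main limit is the design of 2 libraries per group with 54.1% of tested genes called. Scaled to the genes of its own chromosome, GRB10 lost its call (log2 fold change 0.051, adjusted p = 0.659, edgeR's quasi-likelihood test). That scaling removes the median shift of chromosome 7 (0.50), while the 12 tested genes within 5 Mb of GRB10 had a median of -0.16. The other 4 tested members kept their direction and call under every alternative. With library totals alone, 4361 genes were called higher and 3000 lower in place of 3755 and 3712, and the median of all genes moved to 0.11. DESeq2's Wald test called 2666 higher and 2767 lower. With at least 10 counts in every library, 4 in place of 7 of the other imprinted genes were lower and 2 in place of 4 relatives were higher, since fewer genes could be tested. Of the maintenance genes, 1 in place of 3 was higher with DESeq2's Wald test, and the cause was not tested. Without each library in turn, 1 to 2 maintenance genes were higher and 1 to 2 genes of the IGF2 pathway were lower, the lowest counts being those without MET+ replicate 1. The log2 fold changes then ran from -2.20 to -1.99 for PHLDA2, -1.80 to -1.73 for PEG10, 0.91 to 0.98 for CDKN1C, 0.71 to 1.01 for MEST and 0.47 to 0.65 for GRB10. With the replicate number as a block, they were -2.09, -1.76, 0.95, 0.86 and 0.56, with 3544 genes called higher and 3511 lower over all. The block lost the call on TRIM28 (adjusted p = 0.107, edgeR's quasi-likelihood test).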
